A study of Mus musculus with 12 samples.

Results

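Treg lacking Ikaros were compared before and after 4 hr of stimulation, using the 6 ATAC-seq libraries of Ikzf1 cko Treg among the 12 libraries of the series. ATAC-seq counts insertions of the Tn5 transposase, which enters open chromatin. The 3 ex vivo Ikzf1 cko libraries and the 3 stimulated Ikzf1 cko libraries were each made from 100000 YFP+ Treg of Ikzf1-fl-Foxp3-YFP-Cre mice, and the labels give the spleen as the source. For stimulation, anti-CD3 and anti-CD28 antibodies were bound to the plate. The 6 WT libraries, 3 of each kind, came from Foxp3-YFP-Cre mice. Every library thus carried the Foxp3-driven YFP-Cre, and the floxed Ikzf1 alleles set the genotypes apart. The WT libraries also had lower total counts than the Ikzf1 cko libraries. The paper reports a larger effector and a smaller naive Treg pool in Ikzf1-fl-Foxp3-YFP-Cre mice. The part of these differences in the comparison of genotypes was not tested. Because the Cre is driven by Foxp3, deletion in these mice is directed to Foxp3+ cells and not to the rest of the immune system. The methods call the 3 libraries of a group biological replicates but do not say that each was a separate mouse, so the p-values measure the spread between these libraries. The methods also say that sorted Treg were divided into a stimulated and an unstimulated portion, so libraries of both groups may share a sort, but no label says which, and the groups were compared as independent. Stimulated cells had also been in culture for 4 hr and ex vivo cells had not, and the effects of culture and of the antibodies cannot be told apart here.

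Of 118680 deposited regions, 69957 passed the filter on low counts and were tested. Regions with at least 10 CPM (reads scaled to the total count of the library) in all 3 stimulated or all 3 ex vivo Ikzf1 cko libraries were treated as strong (21249 regions) and the other 48708 as weak. A region was called opened or closed when its log2 fold change, stimulated over ex vivo, was above 1 or below -1 with an adjusted p under 0.05 in edgeR's quasi-likelihood test.

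Treg are CD4+ T cells that hold other T cells in check, and the factor Foxp3 defines them. Ikaros, the product of Ikzf1, is a zinc finger protein that binds DNA together with chromatin remodelling complexes in lymphocytes. Signals from the T cell receptor and CD28 act within minutes to hours through NFAT, AP-1 and NF-kB factors, and Nr4a and Egr genes are among the early genes they induce. Regions that gain or lose accessibility over a few hours are often enhancers, which may lie far from the genes they serve, so a gene named below only says where a region is.

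In strong chromatin, closing was more frequent than opening. Of the 21249 strong regions, 57 opened (0.268%) and 184 closed (0.866%). Regions in or near Il10, Rgs2, Ccr7, Rora and Bach2 were among those closed. Those opened included regions near Bcl6, Egr2, Dusp5 and Cd69, which are the 4 nearest to genes of the lists followed below. None of these 4 was among the 8 with the largest rise, and 11 of the 57 lay in 1 block between the Ugt1a genes and Trpm8. With the adjusted p alone and no threshold on the fold, 3377 strong regions were higher (15.9%) and 5146 lower (24.2%) after stimulation. Weak regions moved the other way under scaling to library totals, with 2056 opened (4.22%) and 258 closed (0.53%). That imbalance depended on the scaling, since loess normalization against abundance gave 635 weak opened and 572 weak closed regions. Under scaling to library totals the median log2 fold change was -0.04 over strong regions and 0.13 over weak ones. All 57 opened and all 184 closed strong regions had no overlap between the 3 stimulated and the 3 ex vivo libraries, against 23.3% of all strong regions with every stimulated library above every ex vivo library and 30.7% with every one below. Of the strong regions called, 17 of the 57 opened and 67 of the 184 closed had 10 CPM in all 6 libraries, and the others qualified as strong through the group in which they were higher. In bulk chromatin, a region open in fewer cells and a region less open in every cell cannot be told apart.

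**Figure D1:**
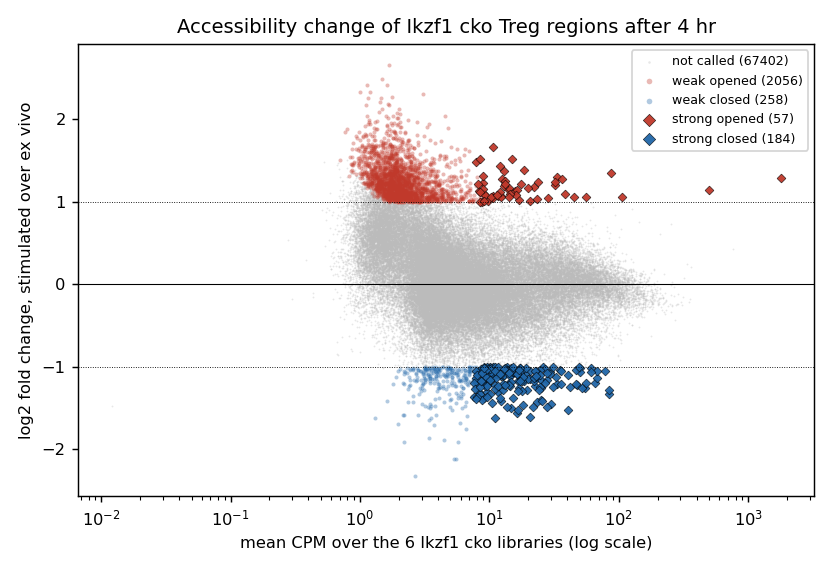
Log2 fold change (stimulated over ex vivo Ikzf1 cko Treg) of the 69957 tested regions against mean CPM over the 6 libraries on a log scale. Red marks opened and blue closed regions, diamonds strong and dots weak ones. The 2056 weak opened regions crowd at low CPM, and the 184 strong closed regions outnumber the 57 strong opened ones.

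The sequences of 11 strong regions on which the account turns are given here, each as the central 300 bases of the region in mm9, 5′ to 3′ on the plus strand. They are the opened regions at Klc1 (chr12:113006496-113006795, intron), Fyco1 (chr9:123744982-123745281, intron), Cap1 (chr4:122545380-122545679, intron), Atp10d (chr5:72641425-72641724, intron), Egr2 (chr10:66956354-66956653, intergenic), Bcl6 (chr16:23997658-23997957, intergenic) and Dusp5 (chr19:53554059-53554358, intergenic). The closed regions are at Ifnar1 (chr16:91458533-91458832, intergenic), Rora (chr9:69152344-69152643, intron), Ccr7 (chr11:99013693-99013992, intron) and Itpkb (chr1:182333693-182333992, intron). Capitals mark exact matches on either strand to AAGGTCA (the NR4A site) in the Klc1, Fyco1 and Dusp5 windows, TGACTCA (AP-1) in the Fyco1, Cap1, Atp10d, Egr2 and Itpkb windows, TGTGGTT (RUNX) in the Bcl6, Ifnar1 and Rora windows, CACGTG (E-box) in the Ccr7 window and TGACGTC (cyclic AMP element, CRE) in the Itpkb window. They are shown because these letters are the ones whose shares are compared between opened and closed regions below.
Klc1 opened: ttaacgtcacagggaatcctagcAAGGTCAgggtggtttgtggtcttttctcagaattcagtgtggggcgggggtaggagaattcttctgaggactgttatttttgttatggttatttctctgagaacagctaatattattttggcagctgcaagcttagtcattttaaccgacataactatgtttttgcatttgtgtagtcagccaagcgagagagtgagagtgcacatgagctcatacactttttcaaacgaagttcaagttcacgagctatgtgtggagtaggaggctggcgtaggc
Fyco1 opened: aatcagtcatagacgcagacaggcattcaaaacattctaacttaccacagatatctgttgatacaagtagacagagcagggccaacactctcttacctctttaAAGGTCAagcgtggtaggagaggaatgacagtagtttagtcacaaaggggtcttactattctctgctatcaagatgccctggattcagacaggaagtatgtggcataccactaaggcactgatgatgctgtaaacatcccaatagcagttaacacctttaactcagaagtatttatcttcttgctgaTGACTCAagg
Cap1 opened: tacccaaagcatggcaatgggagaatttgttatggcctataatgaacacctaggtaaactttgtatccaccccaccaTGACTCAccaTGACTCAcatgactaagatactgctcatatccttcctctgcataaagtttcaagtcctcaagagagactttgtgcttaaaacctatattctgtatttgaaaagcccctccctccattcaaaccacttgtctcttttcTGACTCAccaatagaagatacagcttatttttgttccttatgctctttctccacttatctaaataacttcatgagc
Atp10d opened: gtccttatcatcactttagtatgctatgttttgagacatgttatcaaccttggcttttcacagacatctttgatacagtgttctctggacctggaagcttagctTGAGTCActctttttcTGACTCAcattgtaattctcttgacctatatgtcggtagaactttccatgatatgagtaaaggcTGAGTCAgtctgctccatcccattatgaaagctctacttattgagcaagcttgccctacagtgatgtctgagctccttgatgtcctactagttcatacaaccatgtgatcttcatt
Egr2 opened: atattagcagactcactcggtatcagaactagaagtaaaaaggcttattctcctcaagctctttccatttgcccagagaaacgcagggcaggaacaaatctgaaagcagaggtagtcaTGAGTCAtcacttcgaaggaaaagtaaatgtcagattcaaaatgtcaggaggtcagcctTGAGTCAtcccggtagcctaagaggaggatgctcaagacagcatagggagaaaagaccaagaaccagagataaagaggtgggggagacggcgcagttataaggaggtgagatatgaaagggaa
Bcl6 opened: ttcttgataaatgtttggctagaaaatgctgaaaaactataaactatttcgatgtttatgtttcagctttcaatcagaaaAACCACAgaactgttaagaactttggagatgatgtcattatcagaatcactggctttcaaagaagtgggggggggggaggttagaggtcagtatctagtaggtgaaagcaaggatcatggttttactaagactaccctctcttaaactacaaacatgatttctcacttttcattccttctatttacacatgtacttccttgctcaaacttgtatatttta
Dusp5 opened: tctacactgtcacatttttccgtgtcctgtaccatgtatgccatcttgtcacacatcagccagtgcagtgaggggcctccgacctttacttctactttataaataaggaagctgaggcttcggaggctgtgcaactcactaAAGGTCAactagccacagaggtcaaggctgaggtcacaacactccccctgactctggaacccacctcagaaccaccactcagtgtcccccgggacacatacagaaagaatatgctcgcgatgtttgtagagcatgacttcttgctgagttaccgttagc
Ifnar1 closed: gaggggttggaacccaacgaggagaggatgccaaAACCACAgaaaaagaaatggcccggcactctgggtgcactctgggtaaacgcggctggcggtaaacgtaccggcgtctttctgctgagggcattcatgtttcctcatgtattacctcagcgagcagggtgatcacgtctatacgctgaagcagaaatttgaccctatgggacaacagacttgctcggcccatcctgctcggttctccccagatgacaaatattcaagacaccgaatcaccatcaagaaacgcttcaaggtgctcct
Rora closed: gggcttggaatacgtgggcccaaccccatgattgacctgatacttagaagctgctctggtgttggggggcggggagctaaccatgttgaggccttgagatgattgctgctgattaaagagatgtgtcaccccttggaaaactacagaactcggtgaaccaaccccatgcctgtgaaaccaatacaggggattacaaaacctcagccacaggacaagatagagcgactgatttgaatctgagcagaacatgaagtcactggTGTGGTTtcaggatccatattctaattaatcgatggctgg
Ccr7 closed: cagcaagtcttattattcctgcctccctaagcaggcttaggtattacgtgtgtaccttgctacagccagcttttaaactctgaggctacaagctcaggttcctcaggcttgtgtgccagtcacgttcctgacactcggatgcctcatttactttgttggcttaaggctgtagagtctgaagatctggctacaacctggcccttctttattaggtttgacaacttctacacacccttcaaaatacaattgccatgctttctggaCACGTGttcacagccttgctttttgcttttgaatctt
Itpkb closed: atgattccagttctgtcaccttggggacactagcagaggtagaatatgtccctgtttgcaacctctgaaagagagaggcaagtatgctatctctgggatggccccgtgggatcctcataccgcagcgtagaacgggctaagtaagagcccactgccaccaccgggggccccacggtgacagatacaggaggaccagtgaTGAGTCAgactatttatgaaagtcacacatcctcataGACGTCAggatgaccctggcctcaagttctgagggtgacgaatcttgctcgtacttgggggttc

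Among opened strong regions, those named here being the 8 with the largest rise, the top one lay in an intron of Klc1, which encodes a kinesin light chain (chr12:113006186-113007105). Its accessibility was 18.9, 13.8 and 16.2 CPM in the 3 stimulated libraries and 5.01, 5.60 and 4.70 CPM in the 3 ex vivo libraries. The lowest stimulated library was well above the highest ex vivo library, and the log2 fold change was 1.67 ± 0.14 (SE, edgeR adjusted p = 7.5e-10). A region 12.3 kb downstream of the start of P4ha2, a subunit of collagen prolyl 4-hydroxylase, had 30.5, 17.1 and 19.0 CPM stimulated and 8.27, 6.76 and 7.86 CPM ex vivo (log2 fold change 1.53 ± 0.18, edgeR adjusted p = 2.3e-07). Stimulated replicate 1 stood above the other two there, and the groups did not overlap. An intronic region of Atp10d, a phospholipid-transporting ATPase, rose from 4.56, 4.80 and 3.68 CPM to 11.5, 11.2 and 14.7 CPM (1.52 ± 0.15, edgeR adjusted p = 1.9e-08). At Cap1, whose product binds actin monomers, an intronic region rose from 5.21, 3.85 and 3.25 CPM to 11.1, 12.3 and 11.5 CPM (1.48 ± 0.16, edgeR adjusted p = 7.1e-08). The 3 stimulated libraries were close together and all above 11 CPM, with no ex vivo library above 5.21 CPM.

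Fyco1 links autophagosomes to microtubule motors, and its intronic region had 21.4, 15.5 and 16.7 CPM stimulated against 6.84, 7.49 and 5.21 CPM ex vivo (1.44 ± 0.16, edgeR adjusted p = 1.4e-07). The region at Kctd16, which encodes an auxiliary subunit of GABA-B receptors, had 34.0, 20.9 and 25.6 CPM against 10.7, 9.38 and 10.6 CPM (1.38 ± 0.17, edgeR adjusted p = 3.6e-07). Sc4mol encodes a sterol oxidase of cholesterol synthesis, and a region 3.92 kb upstream of its nearest annotated start had 18.1, 18.7 and 19.5 CPM against 7.23, 7.41 and 7.09 CPM (1.37 ± 0.13, edgeR adjusted p = 2.3e-09). Both groups were tight at Sc4mol, with SDs of 0.716 CPM stimulated and 0.160 CPM ex vivo. The region 68.0 kb downstream of the Axin2 start, a negative regulator of Wnt signalling, was among the most accessible of the opened regions, at 152, 114 and 112 CPM against 49.4, 51.6 and 46.9 CPM (1.35 ± 0.13, edgeR adjusted p = 8.5e-09). These 8 regions were named only from called regions without overlap between the groups, so their lack of overlap is part of that choice.

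**Figure D2:**
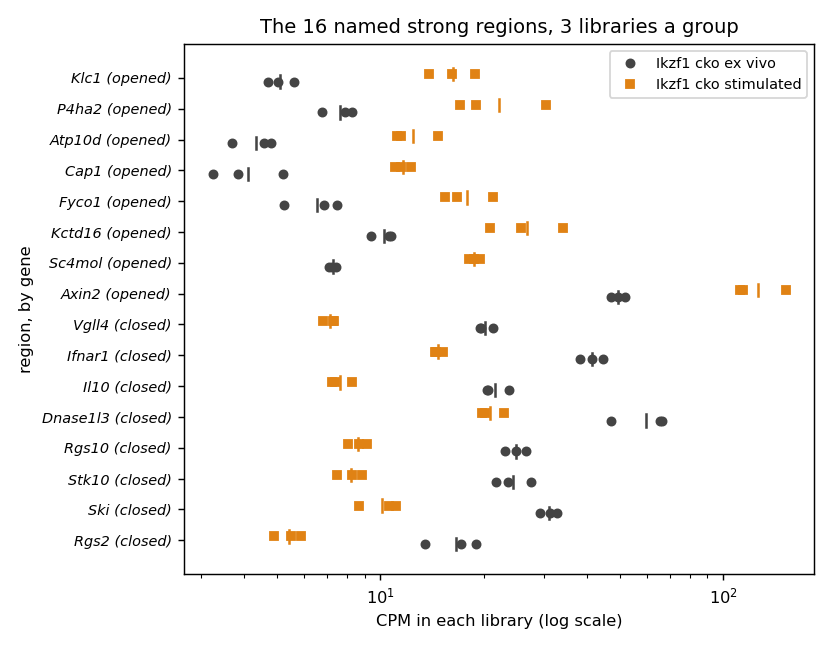
CPM in each Ikzf1 cko library (log scale) for the 8 strong regions that rose most and the 8 that fell most, labelled by gene. Circles are ex vivo and squares stimulated libraries, 3 a group, and vertical bars are group means. Regions were named only where the groups do not overlap. The stimulated means of the closed regions lie between 5.41 CPM at Rgs2 and 20.9 CPM at Dnase1l3.

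The largest fall among strong regions was in the body of Rgs2 (chr1:145847533-145847853, overlapping an exon). Rgs2 and Rgs10 encode regulators that shorten signalling by G protein-coupled receptors. The Rgs2 region had 5.86, 4.88 and 5.49 CPM stimulated and 19.0, 17.2 and 13.5 CPM ex vivo, and it fell by 1.62 on the log2 scale (SE 0.15, edgeR adjusted p = 2.1e-09). All 3 stimulated libraries were well below the lowest ex vivo library. A region of Rgs10 (chr7:135517543-135518282) had 8.68, 8.04 and 9.16 CPM against 24.9, 26.7 and 23.2 CPM, 2.88-fold lower (edgeR adjusted p = 3.1e-10). An intron of Ski, a repressor of TGF-beta signalling, had 8.68, 10.6 and 11.1 CPM against 31.2, 29.1 and 32.7 CPM, 3.04-fold lower (edgeR adjusted p = 1.3e-11). An intron of Stk10, a serine/threonine kinase of lymphocytes, had 7.48, 8.24 and 8.81 CPM against 23.6, 27.5 and 21.8 CPM, 2.96-fold lower (edgeR adjusted p = 3.7e-10). The groups were apart by more than 10 CPM in each of these 3 regions.

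The region over the start site of Dnase1l3, a secreted DNase, fell from 66.5, 65.3 and 47.2 CPM to 22.9, 20.2 and 19.8 CPM, 2.87-fold (edgeR adjusted p = 7.1e-12). Ex vivo replicate 3 was the lowest of its group and still above every stimulated library. At Il10, the gene of a suppressive cytokine made by Treg, a region 2.67 kb into the gene (chr1:132919094-132919890, overlapping an exon) had 7.37, 7.23 and 8.29 CPM stimulated and 20.6, 23.7 and 20.5 CPM ex vivo. That is 2.82-fold lower after stimulation (log2 fold change -1.50 ± 0.12, edgeR adjusted p = 3.2e-10). An intergenic region 26.4 kb upstream of the start of Ifnar1, a chain of the type I interferon receptor, had 14.4, 15.3 and 14.5 CPM against 41.5, 44.6 and 38.1 CPM, also 2.82-fold lower (edgeR adjusted p = 5e-12). An intron of Vgll4, a cofactor of TEAD factors, had 7.27, 6.82 and 7.33 CPM against 19.5, 21.3 and 19.7 CPM (2.82-fold lower, edgeR adjusted p = 4.2e-09). In all 4 regions the stimulated libraries differed among themselves by far less than the gap to the ex vivo libraries.

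The fold threshold cuts through a continuous range. The strong opened regions just inside it were near Mfsd7c and Hjurp, both with a log2 fold change of 1.00, and those just outside were near Usp25 (0.998) and Tbc1d1 (0.989). Just inside the closed threshold lay regions near Atp6v1g2 and the chemokine receptor gene Cxcr4 (-1.0007 and -1.0013), and just outside lay regions near Satb1 and Mef2c (both -0.999).

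Start sites took little part in the large changes. Of 10125 strong regions over an annotated start site, 5 opened and 5 closed, and their median log2 fold change was 0.06. Of 11124 strong regions away from start sites, 52 opened and 179 closed, with a median of -0.17. The 5 closed starts were those of Dnase1l3, Rgs10, Gm9953, Mt1 and Rara, and the 5 opened ones were those of Ybx2, Zbtb12, Tmem219, Ugt1a1 and Pbx2. At Rgs10 both the start and the region in the gene body closed. Among strong regions away from start sites, the closed ones had a median length of 639 bases against 891 for all of them, and 51.4% lay in introns against 43.1%. The opened ones had a median length of 716 bases and 40.4% lay in introns.

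Some closed and some opened regions lay side by side. Joining called regions of the same direction across gaps of at most 50 kb gave 23 runs of 3 or more closed regions, which held 50 of the 184 strong closed regions, and 33 runs of opened regions, which held 16 of the 57 strong opened ones. The longest closed run spanned 101 kb on chromosome 6 around Mir29a and Mir29b-1, the genes of 2 microRNAs of the miR-29 family (chr6:30999547-31100797). It held 27 tested regions, of which 15 closed, 5 of them strong, and the median log2 fold change over the 27 was -1.10. The most accessible closed region of this run (chr6:31076221-31077185) fell from 112, 121 and 123 CPM to 48.8, 44.3 and 53.2 CPM, 2.43-fold (edgeR adjusted p = 6.3e-13). The next run covered 76.1 kb within Itpkb, whose kinase phosphorylates inositol trisphosphate and tempers calcium signalling (chr1:182264661-182340801). Of its 24 tested regions 9 closed, 6 of them strong. The Itpkb region shown above by its sequence belongs to a strong region (chr1:182333384-182334300) with 49.9, 45.3 and 49.5 CPM stimulated and 121, 122 and 121 CPM ex vivo. The ex vivo libraries were almost equal there, with an SD of 0.678 CPM, and the region was 2.51-fold lower after stimulation (edgeR adjusted p = 1.3e-13).

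Runs of 5 closed regions lay at Dusp10, Plagl1, Ets1 and upstream of Tnfaip3. Ets1 encodes a transcription factor of T cells, and a strong region in its body fell from 51.4, 51.2 and 47.1 CPM to 19.7, 21.7 and 23.2 CPM (2.31-fold, edgeR adjusted p = 5.2e-09). Tnfaip3 encodes A20, a feedback inhibitor of NF-kB. Its upstream run held 5 closed regions, 4 of them strong, and 1 weak opened region (chr10:18806816-18807166, log2 fold change 1.01), and a second run of 3 closed regions lay at the other end of the gene. A strong region in the second run had 14.0, 16.3 and 14.3 CPM against 36.3, 36.1 and 33.8 CPM (chr10:18718960-18719700, log2 fold change -1.26, edgeR adjusted p = 5.3e-10). Closing at Tnfaip3 sat beside an opened region within the same 59.8 kb.

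Opened regions also formed a dense block, of another make-up. On chromosome 1, 23 of 41 tested regions between the Ugt1a genes and Trpm8 opened, 11 of them strong (chr1:90108255-90207304). Ugt1a genes encode enzymes of glucuronidation. The region over the Ugt1a1 start had 24.8, 21.4 and 19.0 CPM stimulated and 9.05, 10.2 and 10.3 CPM ex vivo (log2 fold change 1.13, edgeR adjusted p = 2.9e-07). The median log2 fold change of the 23 opened regions was 1.16 in Ikzf1 cko Treg and 1.18 in WT Treg. A second block at Sfi1 and Eif4enif1 on chromosome 11 held 5 opened regions, 4 of them strong. The region with the highest counts among those opened lay on chromosome 17, outside the genes of the annotation used (chr17:39980016-39983685). Its mean was 2547 ± 372 CPM stimulated and 1041 ± 87.9 CPM ex vivo (SD, 3 libraries each). Its log2 fold change was 1.29 in Ikzf1 cko and 1.33 in WT Treg. Reads from copies of this sequence missing from mm9 could be counted there, and their part was not tested. Sequence that occurs at more than 1 place in mm9 made up over 50% of 3 of the 57 strong opened regions and of none of the 184 strong closed ones, against 0.471% of all strong regions. This count sees only copies present in mm9. The part of copies missing from mm9 was not tested for any opened region, those of the blocks above included.

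**Figure D3:**
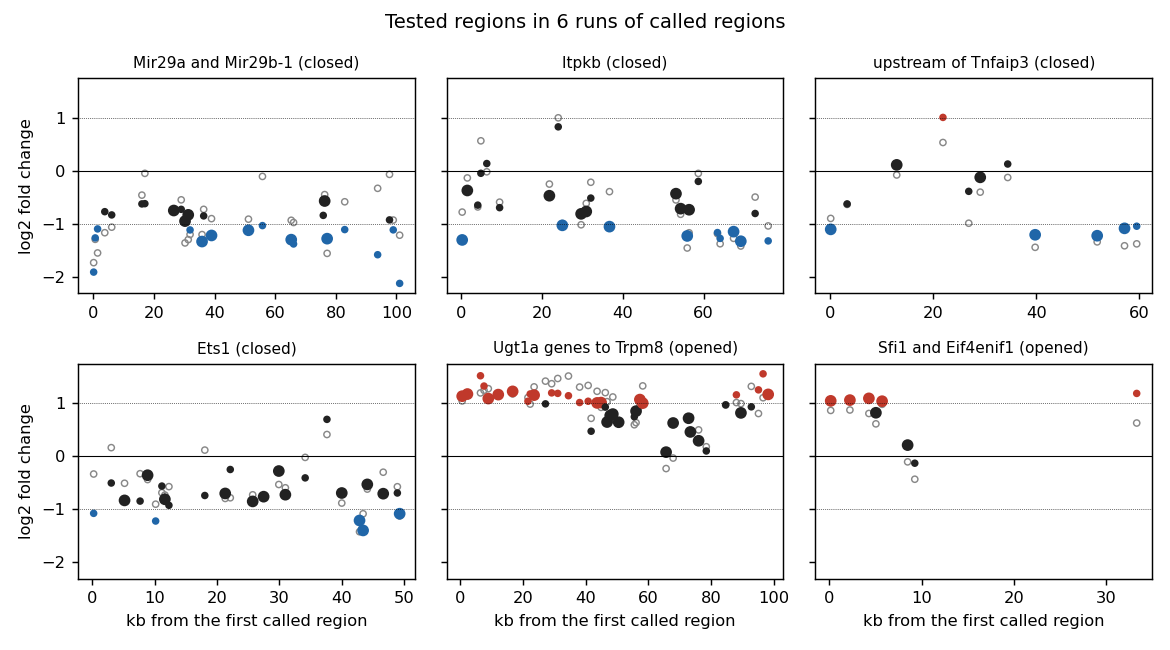
Log2 fold change (stimulated over ex vivo) of every tested region in 6 runs of called regions, by distance in kb from the first called region of the run. Filled points are Ikzf1 cko (large for strong, blue closed, red opened, black not called) and open circles are the same regions in WT. At Mir29a and Mir29b-1 all 27 filled points lie below 0, and in the block from the Ugt1a genes to Trpm8 the opened regions lie between 1.00 and 1.56.

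Gene lists were then followed, 188 genes in 14 lists, of which 12 are for T cell activation and Treg and the other two for other cell types (18 genes) and constitutive genes (16 genes), by the regions whose nearest start within 100 kb was theirs. Together these held 772 strong tested regions, of which 4 opened (0.518%) and 26 closed (3.37%), against 0.268% and 0.866% of all strong regions. The median log2 fold change of the 772 was -0.19, against -0.04 for all strong regions. However, 47.6% of all strong regions lay over a start site, where few were called. Strong regions away from start sites had a median of -0.17, with 52 opened and 179 closed of 11124. The 772 were not matched to either set by their share of start-site regions. Of their 1117 weak tested regions, 20 opened (1.79%) and 13 closed (1.16%), against 4.22% and 0.53% of all weak regions. None of 157 start-site regions of these genes was called, and with the adjusted p alone 30 were higher and 22 lower. The lists were chosen with earlier results of these data known, so these counts describe the lists and were not tested.

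Of the transcription factor genes, those of NF-kB and its inhibitors had 67 strong regions with 6 closed and none opened (median -0.18), the closed ones at Tnfaip3 and Nfkb1. Among 81 weak regions of the same list 4 opened and 2 closed. The weak region 3.31 kb downstream of the start of Nfkbid, which encodes a nuclear IkB protein, rose from 1.50, 1.60 and 2.22 CPM to 7.37, 7.94 and 6.45 CPM (4.11-fold, edgeR adjusted p = 4.2e-08). Weak regions near Nfkbia and Rel also opened. NFAT, Nr4a and Egr genes had 74 strong regions with 1 opened and 1 closed. The opened one lay 41.5 kb upstream of Egr2, an early gene of T cell receptor signalling (chr10:66956303-66956703), at 11.8, 11.2 and 11.4 CPM stimulated and 5.47, 5.74 and 4.36 CPM ex vivo (log2 fold change 1.13 ± 0.15, edgeR adjusted p = 1.1e-06). The 3 stimulated libraries were nearly equal and all above the ex vivo libraries. The closed one lay in an intron of Nfatc1, with 5.86, 5.70 and 5.23 CPM against 14.3, 12.9 and 11.9 CPM (-1.23, edgeR adjusted p = 1.6e-07). A weak region at the end of Nr4a1, which encodes an orphan nuclear receptor induced by receptor signalling, rose from 1.30, 1.53 and 1.80 CPM to 4.55, 4.17 and 3.92 CPM (2.74-fold, edgeR adjusted p = 3.5e-05). The start of Nr4a1 had 62.2 ± 1.80 CPM stimulated and 57.9 ± 1.69 CPM ex vivo (SD, 3 libraries each; log2 fold change 0.10, edgeR adjusted p = 0.31).

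AP-1 genes had 33 strong regions with none opened and 1 closed, near Fosb, and a median of 0.03. Of 40 weak regions 3 opened, near Fosl2, Jun and Fos, the one near Fosl2 from 0.912, 0.799 and 0.855 CPM to 3.90, 3.26 and 2.62 CPM (edgeR adjusted p = 0.00034). The start of Batf, a partner of Jun proteins in T cells, was higher after stimulation by 0.44 on the log2 scale (edgeR adjusted p = 0.00065), short of the fold threshold, and the start of Jun was lower (-0.32, edgeR adjusted p = 0.00011).

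Effector Treg factor genes had 81 strong regions, 1 opened and 5 closed. The opened region lay 8.26 kb upstream of Bcl6, a repressor that marks follicular T cells (chr16:23997195-23998419). It had 33.8, 34.9 and 31.7 CPM stimulated and 14.1, 15.3 and 12.9 CPM ex vivo, a rise of 2.36-fold (log2 fold change 1.24 ± 0.10, edgeR adjusted p = 2.9e-10). Both groups were tight and more than 15 CPM apart. The closed regions lay at Rora and Bhlhe40. Rora encodes a nuclear receptor of tissue Treg, and its region shown above fell from 31.7, 35.2 and 28.4 CPM to 11.3, 11.4 and 11.4 CPM (2.80-fold, edgeR adjusted p = 2e-11). At Bhlhe40, a basic helix-loop-helix repressor, the region overlapping an exon had 27.2, 27.3 and 29.4 CPM against 71.2, 73.9 and 49.2 CPM (2.32-fold lower, edgeR adjusted p = 4.6e-09).

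Naive and quiescence genes had the most regions, 147 strong ones, of which 6 closed and none opened (median -0.27). Those closed lay at Bach2, Ccr7, Foxo1 and Foxp1. Ccr7 is the receptor that guides naive T cells into lymph nodes, and its region shown above fell from 12.8, 16.7 and 16.6 CPM to 5.42, 5.70 and 5.76 CPM (2.71-fold, edgeR adjusted p = 5.7e-08). Bach2 encodes a repressor that restrains effector differentiation, and a strong intronic region there fell from 106, 108 and 102 CPM to 44.1, 51.6 and 57.0 CPM (2.07-fold, edgeR adjusted p = 1.8e-10). Near Foxo1, a factor of quiescent T cells, a region 5.15 kb upstream of the start fell 2.09-fold (edgeR adjusted p = 2.6e-06). None of the 17 start sites in this list was called.

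Costimulatory and TNF family genes had 79 strong regions with 1 opened, 2 closed and a median of -0.29. The opened region lay in an intron of a neighbouring gene, 45.9 kb from the start of Cd69, an early activation marker. It had 18.2, 17.2 and 22.0 CPM stimulated and 7.55, 10.5 and 9.66 CPM ex vivo (log2 fold change 1.06, edgeR adjusted p = 2.9e-06). The closed ones lay near Tnfrsf1b and Cd83, and the Tnfrsf1b region fell from 97.0, 97.9 and 78.1 CPM to 42.4, 42.8 and 46.7 CPM (2.07-fold, edgeR adjusted p = 2.2e-10). The start of Tnfrsf9, which encodes 4-1BB, was 1.76-fold lower (66.0 ± 4.59 CPM ex vivo and 37.5 ± 1.31 CPM stimulated, SD, 3 libraries each, edgeR adjusted p = 3e-08) and was not called. A weak region in Cd28 opened 2.48-fold (edgeR adjusted p = 0.00015).

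Genes of T cell receptor feedback had 83 strong regions with 1 opened and none closed. The opened one, 49.0 kb upstream of Dusp5, the gene of a nuclear ERK phosphatase, rose from 5.14, 5.60 and 4.53 CPM to 13.8, 11.4 and 13.2 CPM (2.50-fold, edgeR adjusted p = 4.9e-08). Activation metabolism genes had 44 strong regions with 2 closed, both at Odc1, the first enzyme of polyamine synthesis. The larger one fell from 100, 95.6 and 84.5 CPM to 44.4, 41.2 and 42.6 CPM (2.19-fold, edgeR adjusted p = 5e-12). Cytokine and chemokine genes had 31 strong regions, of which the one at Il10 closed. The start of Ltb, the gene of lymphotoxin beta, was 1.76-fold higher (22.8 ± 3.28 and 12.9 ± 1.50 CPM, SD, 3 libraries each, edgeR adjusted p = 1.6e-05) without reaching the fold threshold. IL-2 receptor and STAT5 genes had 51 strong regions with 1 closed, at Stat5b, and inhibitory and suppressive genes had 41 with none called. Constitutive genes had 26 strong regions with none called and a median of 0.12.

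Start sites of Treg marker genes were counted in both states. Their summed level was lower after stimulation, while single starts moved in both directions. A region over the start was tested for 7 of 8 Treg markers. The summed level of these 7 ranged from 110.6 to 120.5 CPM in stimulated and from 121.1 to 133.1 CPM in ex vivo libraries. Every stimulated library was thus below every ex vivo library. The starts of Foxp3 and Cd4 were weak by the rule used here. The start of Foxp3 had 7.62 ± 1.57 CPM stimulated and 5.31 ± 0.714 CPM ex vivo (log2 fold change 0.52, edgeR adjusted p = 0.025), that of Il2ra, the IL-2 receptor alpha chain, 23.9 ± 2.57 and 22.0 ± 0.507 CPM (0.12, edgeR adjusted p = 0.42), and that of Ctla4 25.4 ± 0.949 and 35.1 ± 1.15 CPM (-0.46, edgeR adjusted p = 0.00042), each as mean ± SD of 3 libraries. The 35 strong regions of this list had 1 closed, in Cd5, and a median of -0.26. Of 18 marker genes of B, myeloid, CD8, erythroid, NK and plasmacytoid dendritic cells, 7 had a deposited region over the start and 4 of these passed the filter. The summed level of all 7 was 69.4 to 71.5 CPM stimulated and 67.4 to 72.5 CPM ex vivo, with the highest mean at Cebpa (32.5 and 37.5 CPM). The starts of Cd14 (14.6 and 12.9 CPM) and Cd8b1 (14.2 and 13.3 CPM) were above those of Foxp3 and Cd4 (4.89 and 4.58 CPM). Those of Cd79b, Cd8a, Gata1 and Klrb1c were below both. None of the 11 strong regions of this list was called. An open start does not show that a gene is transcribed, and the part of other cells in the results was not tested.

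Ikzf1 itself does not check the deletion here, since accessible regions along the gene were counted in every Ikzf1 cko library and the sources used here do not place the floxed exons. A strong region in an Ikzf1 intron closed (chr11:11619790-11620196), with 6.51, 4.88 and 7.50 CPM stimulated and 13.8, 14.2 and 14.5 CPM ex vivo (log2 fold change -1.16, edgeR adjusted p = 3.7e-06), and it was lower by a like amount in WT Treg (-1.04).

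Most strong changes had the same direction in WT Treg. Of the 57 strong opened regions 55 rose in WT as well and 24 were called there, with a median WT log2 fold change of 0.95 beside 1.14 in Ikzf1 cko. Of the 184 strong closed regions 181 fell in WT and 115 were called (median -1.14 in WT and -1.12 in Ikzf1 cko). Among all strong regions WT stimulation opened 52 (0.245%) and closed 976 (4.59%). Strong regions took 55.7% to 59.6% of counted reads in stimulated and 66.3% to 70.7% in ex vivo WT libraries, and 69.5% to 72.9% and 71.6% to 74.5% in the Ikzf1 cko libraries. The part of these shares in the counts and in the comparison of genotypes was not tested beyond the other scalings tried. The size of the response was compared directly in the same edgeR model, as the Ikzf1 cko response minus the WT response. It differed for 13 of the 57 opened regions, all with the larger rise in Ikzf1 cko Treg. It also differed for 10 of the 184 closed regions, 9 of them with the larger fall in Ikzf1 cko Treg. All these regions were chosen by their Ikzf1 cko response, which by itself favours a larger change in Ikzf1 cko. Their directions are therefore no further evidence. The whole strong class leaned the same way as the 13: the response was higher in Ikzf1 cko at 3380 strong regions (15.9%) and lower at 130 (0.612%), beside a median response of -0.26 in WT and -0.04 in Ikzf1 cko. Scaling all libraries to regions with at least 10 CPM in each left 8 of the 13 past the threshold.

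**Figure D4:**
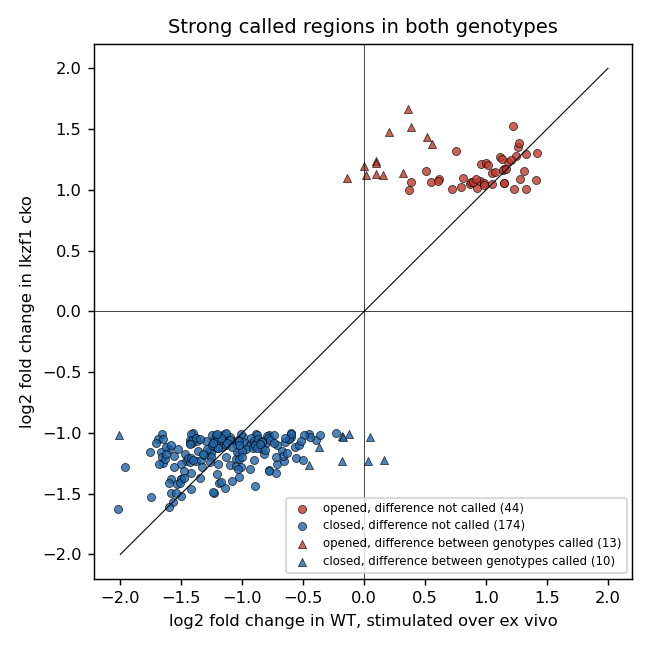
Log2 fold change (stimulated over ex vivo) of the 241 strong called regions in WT (x axis) and Ikzf1 cko Treg (y axis), with the line of equal change. Triangles mark the 23 regions whose response differed between genotypes in edgeR's test. The 13 opened triangles lie at WT log2 fold changes between -0.14 and 0.55.

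The 13 regions opened more strongly in Ikzf1 cko Treg include those at Klc1, Cap1, Atp10d, Fyco1, Sc4mol, Bcl6 and Egr2. Their WT log2 fold changes had a median of 0.16, and none was called in WT. At Bcl6 the WT libraries had 18.2, 20.8 and 15.0 CPM stimulated and 16.9, 16.8 and 16.9 CPM ex vivo, so the WT groups overlapped, and the difference in response was 1.14 (edgeR adjusted p = 0.00012). At Klc1 the difference was 1.31 (edgeR adjusted p = 0.00075) and at Egr2 it was 1.03 (edgeR adjusted p = 0.011). A region in an intron of Gad2 had the least WT response of the 13, with 11.9, 13.7 and 11.9 CPM stimulated and 15.6, 11.9 and 14.1 CPM ex vivo in WT against 19.2, 19.3 and 20.1 CPM and 9.38, 9.81 and 8.12 CPM in Ikzf1 cko (difference 1.23, edgeR adjusted p = 0.00017). In all 13 every stimulated Ikzf1 cko library was above every stimulated WT library, whereas the ex vivo libraries of the genotypes were apart in 4, with Ikzf1 cko lower.

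The 9 regions that closed more strongly in Ikzf1 cko Treg had another pattern of levels. In 7 of them every ex vivo Ikzf1 cko library was above every ex vivo WT library. At Cd82, a tetraspanin gene, the region upstream of the start had 15.4, 16.9 and 13.8 CPM ex vivo and 5.10, 6.51 and 8.02 CPM stimulated in Ikzf1 cko, and 3.66, 5.30 and 4.89 CPM ex vivo and 4.80, 4.75 and 6.45 CPM stimulated in WT (difference -1.38, edgeR adjusted p = 0.0022). The stimulated Ikzf1 cko libraries thus lay near the WT libraries and the ex vivo ones stood alone. The region in Nfatc1 was similar, with WT libraries between 3.66 and 4.77 CPM in both states (difference -1.26, edgeR adjusted p = 0.0039). Both sets were chosen by a test that uses these levels, so the counts describe them and are no further evidence. The only closed region with a smaller fall in Ikzf1 cko lay 1.02 kb from the start of Entpd6 (-1.02 against -2.01 in WT).

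Of 19 short sequence motifs counted, several differed in share between opened and closed regions. In 300-base windows centred on the 11124 strong regions away from start sites, AAGGTCA was found in 10 of 52 opened (19.2%), 5 of 179 closed (2.8%) and 699 of all 11124 (6.3%). AAGGTCA is bound by NR4A nuclear receptors and by several other nuclear receptors. Its share went from 3.4% at log2 fold changes of -1 to -0.75 through 6.0% just below 0 to 18.4% at 0.75 to 1. The opened regions at Klc1, Fyco1, Dusp5 and Sc4mol hold it, and 2 of the 10 lie in the block from the Ugt1a genes to Trpm8. The E-box CACGTG ran the other way, in 1 of 52 opened (1.9%), 24 of 179 closed (13.4%) and 733 of all (6.6%), and TGACGTC in none of 52, 9 of 179 (5.0%) and 304 of all (2.7%). The RUNX motif TGTGGTT was held by 17.9% of closed and 15.4% of opened windows, with a low of 6.7% in between. TGACTCA, bound by AP-1, was found in 15.4% of opened, 16.2% of closed and 17.0% of all these windows, and TGGAAA, bound by NFAT, in 13 of 52, 26.3% and 25.3%. GGGAA, the core that Ikaros binds, was found in 46.2% of opened, 53.6% of closed and 59.7% of all. Among the other 12, TCF (CTTTGA) was found in 30.8% of opened and 23.5% of closed windows, STAT (TTCNNNGAA) in 13.5% and 6.1%, AGATAA (bound by GATA factors) in 11.5% and 19.0%, and KLF (CACACCC) in 3.8% and 13.4%, against 22.5%, 10.9%, 15.0% and 9.6% of all. Each motif was searched on both strands as exact letters, none of the first 6 motifs contains another, and the median GC content of the regions was 46.1% for opened and 47.8% for closed.

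**Figure D5:**
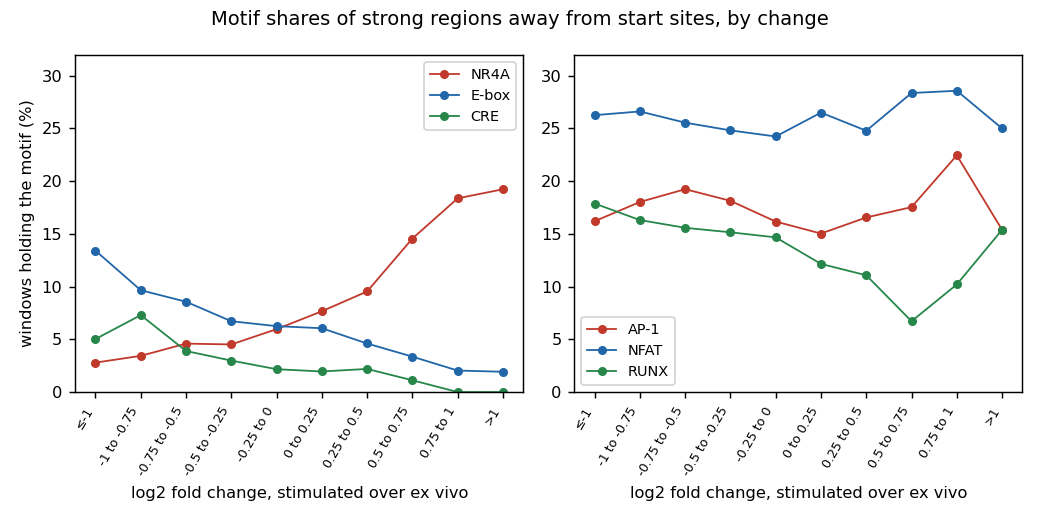
Share of 300-base windows holding a motif (y axis, %) in strong regions away from start sites, in 10 bins of log2 fold change (x axis, stimulated over ex vivo Ikzf1 cko Treg). AAGGTCA (NR4A) rises to 19.2% in the most opened bin of 52 regions, CACGTG (E-box) reaches 13.4% in the most closed bin of 179, and AP-1 and NFAT show no steady trend.

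Among the 57 strong opened regions AP-1 letters were split by the comparison with WT. TGACTCA was present in 6 of the 13 regions whose response was larger in Ikzf1 cko and in 2 of the other 44. The Cap1 and Atp10d windows each hold it at 3 places and the Egr2 window at 2, as the capitals above show. These are small numbers from regions already chosen by their values, and they were not tested.

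Weak regions gave larger folds on fewer reads. Large rises were at H2-Aa, an MHC class II gene, with 3.80, 2.44 and 2.53 CPM stimulated and 0.326, 0.291 and 0.769 CPM ex vivo (log2 fold change 2.67 ± 0.45, edgeR adjusted p = 5.9e-05), and at 2310045N01Rik (2.49) and Neurl1b (2.42). The ex vivo libraries held between 4 and 9 reads in these 3 regions, so the folds rest on few counts. The largest falls were at Mocos, which encodes a molybdenum cofactor sulfurase, from 4.49, 4.65 and 4.27 CPM to 0.868, 0.916 and 0.872 CPM (-2.32 ± 0.32, edgeR adjusted p = 3.1e-06), at Irak3, an inhibitor of Toll-like receptor signalling (-2.12), at the end of the Mir29a and Mir29b-1 run (-2.12) and upstream of Ppp4r2 (-1.92). The 3 stimulated libraries at Mocos were close to equal. The groups did not overlap in 1908 of the 2056 weak opened and 254 of the 258 weak closed regions, beside 19.2% and 11.5% of all weak regions.

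The count of weak opened regions moved with single libraries. Weak regions took 21.4%, 20.8% and 19.6% of counted reads in the stimulated Ikzf1 cko libraries and 19.5%, 19.2% and 20.8% in the ex vivo ones, so ex vivo replicate 3 lay within the stimulated range (difference 0.767 percentage points, two-sided exact permutation test p = 0.3, with 0.1 the smallest p that 3 against 3 allows). The test called 2056 weak opened regions with all libraries, 6202 without ex vivo replicate 3, 970 without stimulated replicate 1, and 1314 and 1230 without ex vivo replicates 1 and 2. Under a filter of 3.6 CPM in all 12 libraries 28 weak regions opened and 24 closed. The strong counts were 66 opened and 236 closed without ex vivo replicate 3. Total counts were 9221901 to 11465957 in the stimulated and 11698967 to 15355521 in the ex vivo Ikzf1 cko libraries, and 4808916 to 8596567 in the WT libraries. Weak opened regions had a median of 39.4 kb to the nearest start, against 20.9 kb for all weak regions, and 2.4% of them held the CTCF motif, against 9.9% of weak regions not called.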

How the data were processed

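ATAC-seq of 12 libraries was deposited as 1 table of accessible regions, which holds for each library the authors' counts of de-duplicated reads, not normalized, and the FPKM and log2 FPKM the authors computed from them. The submitters' processing notes name bcl2fastq, Bowtie2, MACS2 and mm9. The methods print a human build, but the regions fit mm9 chromosomes, which were used here with a GENCODE annotation of that build. Only the counts were used. A second table by the authors, with fold changes, F and p-values of their comparisons, was not used.

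Counts of all 12 libraries entered 1 edgeR 4.0.16 quasi-likelihood model (R 4.3.3) with a mean per group and scaling to library totals, and regions had to reach 3.6 CPM in 3 or more libraries. Contrasts were stimulated minus ex vivo Ikzf1 cko, the same in WT, and their difference, each adjusted by Benjamini-Hochberg over 69957 regions. Alternatives used limma 3.58.1 and DESeq2 1.42.0. On simulated counts of the Ikzf1 cko contrast over 69957 regions, 195 of 200 regions changed by 2 on the log2 scale were recovered, with 5 false calls. No strong called region changed that much, the furthest being 1.67 and -1.62. All other regions were simulated with the same mean in every library, without a shift of weak regions. The simulation therefore does not measure recovery near the threshold or false calls among weak regions.

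Regions carry the name of the nearest protein-coding start. Named are the called regions with non-overlapping libraries that moved furthest, 8 strong and 4 weak in each direction, and, for listed genes, the start-site region and the region with the smallest p. One weak region that this rule names is not reported here. Runs, and the regions named for them, were chosen after their values were seen. The regions and lists were chosen with earlier results of these data known. Totals of 4808916 to 15355521 counts limit weak regions most. Motifs and sequences come from 300-base windows of the mm9 genome, and repeated sequence from exact words of 31 bases.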

Additional observations from a re-analysis of the deposited data

Results flagged for a closer look

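The response to stimulation differed between Ikzf1 cko and WT Treg in 23 of the 241 strong called regions, by edgeR's test of the difference itself (Ikzf1 cko minus WT log2 fold change, adjusted over all tested regions). Opened regions with a larger rise in Ikzf1 cko lay at Klc1 (1.31), Cap1 (1.28), Gad2 (1.23), Atg10 (1.20), Bcl6 (1.14), Atp10d (1.14), Pcm1 (1.12), Ube2e3 (1.11), Egr2 (1.03), Gprin3 (0.96), Fyco1 (0.92), Exoc2 (0.82) and Sc4mol (0.82). The Atg10 region, in an intron of that autophagy gene, had a log2 fold change of 1.20 in Ikzf1 cko and near 0 in WT. Closed regions with a larger fall in Ikzf1 cko lay at Cd82 (-1.38), Nfatc1 (-1.26), Kdm2b (-1.08), Ifitm3 (-1.05), Anks1b (-0.88), Stk32c (-0.86), Katnal1 (-0.84), Nt5c3 (-0.82) and Mocos (-0.75). At Entpd6 the difference was 0.99, with the larger fall in WT. The 241 regions were chosen by their Ikzf1 cko response, which by itself favours a larger change in Ikzf1 cko. Among all strong regions 15.9% had a higher and 0.612% a lower response in Ikzf1 cko.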

How the results depend on the processing

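The 241 strong called regions kept their direction and an adjusted p under 0.05 in all 4321 checks under the alternatives that gave them a value, and both thresholds in 3873. Strong opened regions numbered 57, and 51 to 68 without 1 library. They numbered 3377 with no threshold on the fold, 208 with strong set at 5 CPM and 21 at 20 CPM. Strong closed regions numbered 184, and 166 to 236 without 1 library, 121 with limma on log2(CPM + 1), 5146 with no fold threshold, 318 at 5 CPM and 82 at 20 CPM.

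Weak counts also depended on the processing. Weak opened regions numbered 2056, and 970 (without stimulated replicate 1) to 6202 (without ex vivo replicate 3), with 1314 and 1230 without ex vivo replicates 1 and 2. They numbered 209 with limma, 7210 with no filter, 28 with 3.6 CPM in all 12 libraries, 1024 at an FDR of 0.01 and 5010 with no fold threshold. Weak closed regions numbered 258, and 256 to 371 without 1 library, 65 with limma, 171 with a GC correction, 419 with no filter, 24 with 3.6 CPM in all 12 libraries, 2896 with no fold threshold and 124 with strong at 5 CPM. Loess normalization against abundance gave 635 weak opened and 572 weak closed regions in place of 2056 and 258. The share of reads on weak regions differed by 0.348 to 1.27 percentage points without 1 library. The cause of these changes was not tested.

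The WT comparison gave 8 in place of 13 strong opened regions when scaled to regions with 10 CPM in all 12 libraries. It gave 19 in place of 10 strong closed regions there, 17 under loess and 16 with the GC correction. Same-numbered Ikzf1 cko libraries did not deviate together (correlations -0.357, 0.081 and -0.375), so the numbers were not taken to pair samples, although libraries of both groups may share a sort. The replicate block on the 6 Ikzf1 cko libraries gave 57 strong opened, 183 strong closed, 966 weak opened and 245 weak closed regions, and on all 12 libraries 56, 183, 1519 and 251.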
